A study of Mus musculus with 6 samples.

Results

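Transcripts of glycolysis, lactate export and the pentose phosphate pathway were followed in terminally exhausted CD8+ T cells from mouse melanomas treated with IL-10/Fc, a fusion of interleukin-10 to an antibody Fc part, or with phosphate-buffered saline (PBS). The set held 34 genes, chosen by name for their place in these pathways, and all 34 were among the 15898 genes of the deposited count table. The cells came from 4 IL-10/Fc and 2 PBS libraries. All mice were C57BL/6 hosts that had received total body irradiation of 4 Gy, 2000000 naive Thy1.1+ PMEL T cells, B16F10 melanoma cells and, on day 10 after the tumour cells, a transfer of 5000000 Thy1.2+ PMEL CD8+ T cells that had been activated. The PMEL genotype joins the background B6.Cg-Thy1a/Cy with the transgene Tg(TcraTcrb)8Rest/J, a T cell receptor for a melanocyte antigen, so a single specificity was studied. From day 10, IL-10/Fc at 20 µg or PBS was injected beside the tumour for 4 doses every other day. On day 18, tumour-infiltrating Thy1.1+ CD8+ cells positive for PD-1 as well as TIM-3, inhibitory receptors whose joint presence is used as a mark of terminal exhaustion, were sorted, 500 to a library. Whether libraries stem from different mice is left unsaid by the labels, and the p-values thus measure the spread between these libraries, which may be technical in part.

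Glycolysis splits glucose into pyruvate in the cytosol and yields ATP without oxygen. Lactate dehydrogenase turns pyruvate into lactate and restores the NAD+ that glyceraldehyde phosphate dehydrogenase needs, and monocarboxylate transporters carry the lactate out. The pentose phosphate pathway branches off after hexokinase, and gives NADPH in its oxidative steps and ribose phosphate for nucleotides in its non-oxidative ones. Activated effector T cells raise glucose uptake and lactate output, with HIF-1alpha and MYC as known drivers of the genes involved.

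Summed over the 34 genes, the scaled transcript level was nearly the same in IL-10/Fc-treated and PBS-treated cells. Counts on the 34 genes summed to 9072, 8328, 8607 and 8705 CPM (counts scaled to a common library size with edgeR's TMM factors) in the IL-10/Fc libraries, and to 8758 and 8075 CPM in the PBS libraries, and the groups overlapped. Abundant genes weigh most in this sum, with Ldha alone at a mean of 2017 CPM in IL-10/Fc and 1854 CPM in PBS. Without TMM factors the set held 0.87%, 0.80%, 0.85% and 0.83% of the counts in IL-10/Fc and 0.96% and 0.86% in PBS. Scaled by library size alone, its median log2 fold change was -0.27, beside -0.18 for all genes tested. Single genes departed from the near-equal sum. Hexokinase Hk2 averaged 50.7 ± 11.3 CPM in IL-10/Fc (SD, n = 4) and 22.1 ± 7.71 CPM in PBS (SD, n = 2). Ldhb, the heart-type lactate dehydrogenase subunit, averaged 4.07 ± 1.86 CPM in IL-10/Fc and 14.2 ± 9.53 CPM in PBS. The transketolase gene Tkt of the pentose phosphate pathway averaged 44.8 ± 5.14 CPM in IL-10/Fc and 64.5 ± 1.32 CPM in PBS.

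None of the 34 genes passed the quasi-likelihood test of edgeR, adjusted by Benjamini-Hochberg over the 15477 genes tested, where 1 gene passed, 0.00646% of all. All 34 genes passed the filter on low counts. At an unadjusted p under 0.05 there were 6 of the 34, 4 higher (Hk2, Hif1a, Aldoa and Pgam1) and 2 lower (Tkt and Ldhb) in IL-10/Fc. That is 17.6% of the set beside 12.7% of all genes tested, a share near the background. The balance of directions depended on the scaling. By library size alone, Hk2 was the sole gene of the set higher at an unadjusted edgeR p under 0.05. Tkt, Ldhb, Pkm, Eno1, Pfkp, Pgd and Taldo1 were lower, and the median of all genes tested was -0.18. With TMM factors the groups did not overlap for 10 of the 34, or 29.4%, beside 23.6% of all genes. Of these, Hk2, Hif1a, Aldoa, Pgam1, Ldha and Rpia were higher and Tkt, Ldhb, Eno3 and Pgd lower in IL-10/Fc. The authors' deposited table called 3 of the 34 at an adjusted p under 0.05, where it called 5.3% of all listed genes. Hk2 was higher, as were 3.57% of all listed genes, and Tkt and Ldhb were lower, as were 1.72%. DESeq2 fitted to the same counts after edgeR's filter called Hk2 alone (adjusted p = 0.00599), with Tkt at 0.0507 and Ldhb at 0.0513, and called 5.04% of the genes it gave an adjusted p. Limma-voom called 0 of the 34 and had 7 at an unadjusted p under 0.05, or 20.6%, beside 13.5% of all genes. The median log2 fold change of the 34 genes was -0.09, beside -0.01 for all genes tested. Values were above 0 for 15 genes and below 0 for 19, beside 49.3% and 50.7% of all genes. Without PBS replicate 2 the median was 0.09, so its sign rests on that library.

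**Figure D1:**
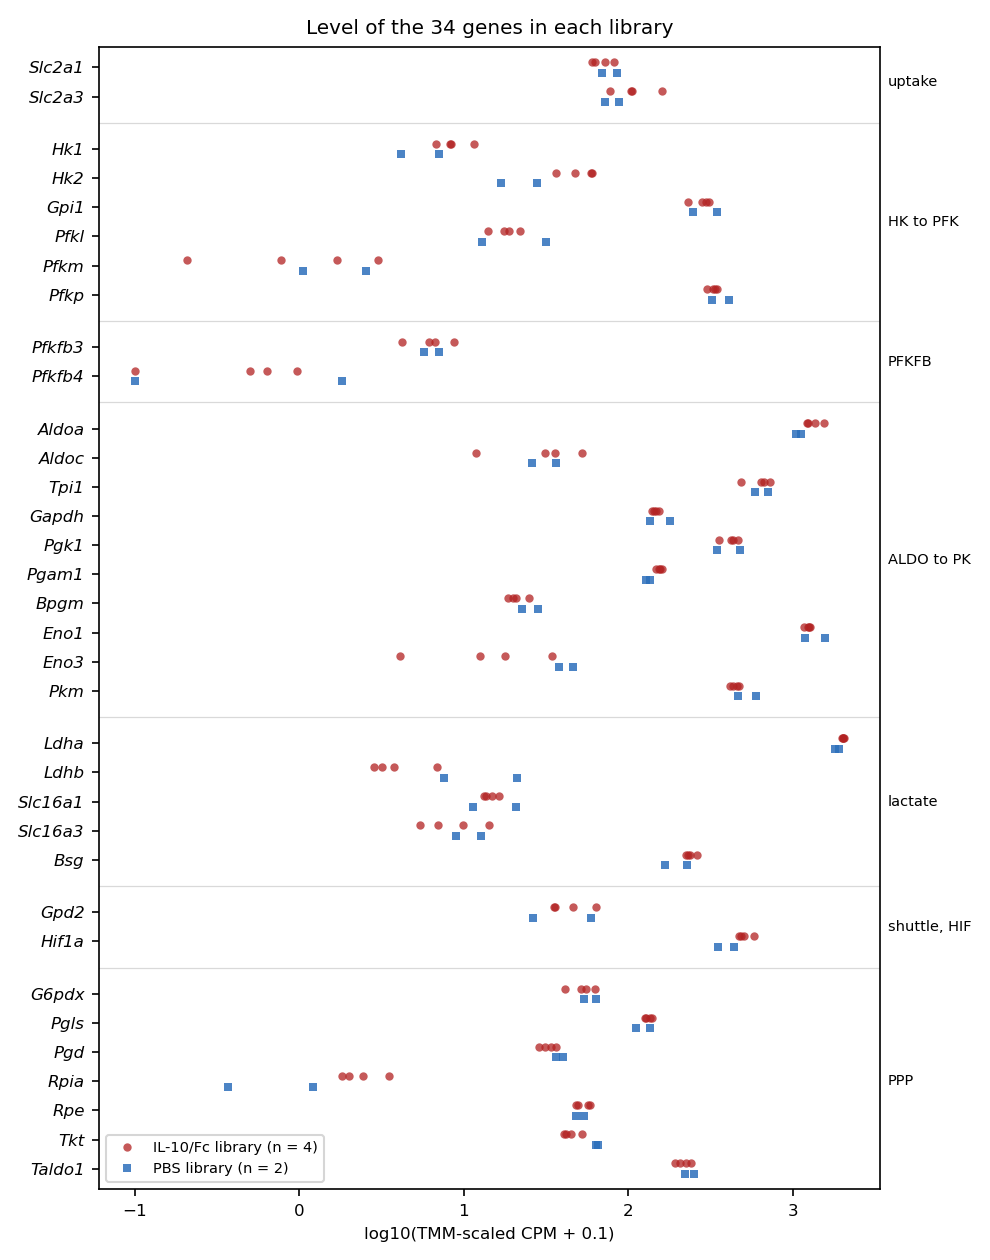
Level of each of the 34 genes in each library, as log10 of TMM-scaled CPM plus 0.1, in the order of the pathway. Red circles are the 4 IL-10/Fc libraries, drawn above the blue squares of the 2 PBS libraries; Hk2 and Rpia stand to the right of PBS and Ldhb, Eno3 and Tkt to the left, while most genes coincide.

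Libraries held 28235203 to 36941814 counts in IL-10/Fc and 26738871 and 28774401 in PBS. A count of 3 then stands for 0.0812 to 0.112 CPM, a floor that covers counting error only. The 9 T cell markers, which include the sorted CD8, PD-1 and TIM-3 genes, summed to 12855 to 14521 CPM in IL-10/Fc and to 6901 and 10778 CPM in PBS, and each of the 9 was detected in all 6 libraries. Of them 6 were higher and Pdcd1, which encodes PD-1, lower in IL-10/Fc at an unadjusted edgeR p under 0.05, beside 7.2% and 5.52% of all genes. The authors' deposited table called 4 of the 9, all higher, as were 3.57% of all listed genes. Pdcd1 averaged 918 ± 177 CPM in IL-10/Fc (SD, n = 4) and 1432 ± 207 CPM in PBS (SD, n = 2). Macrophage and monocyte markers summed to 146 to 626 CPM in IL-10/Fc and to 245 and 400 CPM in PBS. Of those 12 markers, 10 had a higher value in IL-10/Fc, the authors' deposited table called 4 higher, and Mrc1 was at 0 in both PBS libraries. Melanoma markers (4 analysed) summed to 4.76 to 9.04 CPM in IL-10/Fc and to 0.645 and 6.34 CPM in PBS, and defining genes such as Tyr and Mitf were not among those analysed. B cell markers (2 analysed) summed to 3.92 to 15.5 CPM in IL-10/Fc and 42.5 and 42.8 CPM in PBS. In PBS nearly all of that sum was Ighm (mean 42.3 CPM, against 5.66 CPM in IL-10/Fc). Cd79b went the other way, at a mean of 3.91 CPM in IL-10/Fc and 0.359 CPM in PBS. Fibroblast and endothelial markers (2 analysed) summed to 6.59 to 9.87 CPM in IL-10/Fc and 20.4 and 16.6 CPM in PBS. Nearly all of this was Pecam1, and Col1a1 averaged 0.317 CPM in IL-10/Fc and 0.0497 CPM in PBS. NK cell and neutrophil markers (3 analysed each) reached at most 23.9 CPM. The 16 proliferation genes summed to 1410 to 2491 CPM in IL-10/Fc and to 2238 and 2311 CPM in PBS. Values were higher in IL-10/Fc for 5 and lower for 11, with a median log2 fold change of -0.32. At an unadjusted edgeR p under 0.05, 0 were higher and 4 lower, beside 7.2% and 5.52% of all genes. The authors' deposited table called 1 of the 16, Mcm5, which was lower. The part of T cell content, other cells and proliferation in the results was not tested. In such bulk libraries, fewer cells of a type and less RNA per cell cannot be told apart.

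Before the single genes, the counts of several enzymes need their sequence context, because glycolytic genes have left many near-identical copies in the mouse genome. A transcript of at least 95% identity over 200 bases or more, on a gene that did not overlap the enzyme's own gene, was found among the counted genes for 9 of the 34. For Gapdh, 72 of the counted genes were such copies, and they held 82.2% of the counts on Gapdh and its copies together. Gm12070 on chromosome 11, a copy with many counts, had 41408 counts over the 6 libraries, against 27140 for Gapdh itself on chromosome 6. It had the most counts of the copies compared, and that comparison did not cover all chromosomes. The transcripts of Gapdh and Gm12070 aligned over 1002 bases with 1 mismatch. Reads that lie within the 1002 aligned bases and miss this mismatch cannot be assigned to either gene. A stretch of 60 bases around the mismatch, coding bases 331 to 390 of Gapdh in GENCODE M21, is therefore shown:
Gapdh: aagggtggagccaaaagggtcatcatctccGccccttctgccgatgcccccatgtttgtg
Gm12070: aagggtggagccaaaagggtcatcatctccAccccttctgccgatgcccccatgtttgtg
The capital marks the mismatching base. Copies held 45.3% of the joint counts for Eno1, 44.0% for Pgk1, 33.3% for Pgam1, 19.2% for Pkm, 17.2% for Gpi1 and 10.6% for Ldhb, and under 5% for Tpi1 and Ldha.

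**Figure D2:**
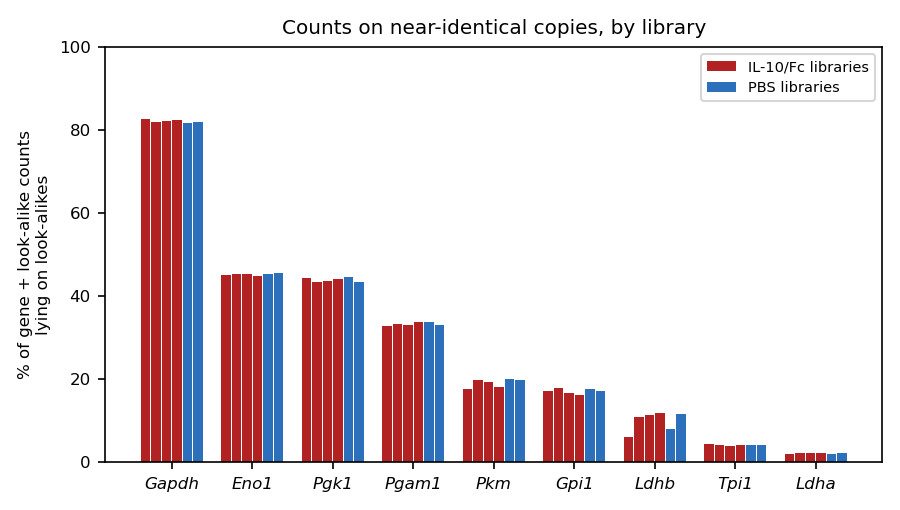
Percentage of the counts on each gene and its near-identical copies that lay on the copies, for the 9 genes concerned. Each bar is a library, the 4 IL-10/Fc libraries in red and the 2 PBS libraries in blue to their right; for Gapdh all 6 lie between 81.7% and 82.8%.

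The share on copies was nearly constant between libraries, from 81.7% to 82.8% for Gapdh and from 44.8% to 45.6% for Eno1, and most variable for Ldhb, from 6.12% to 11.9%. The labels do not say whether a read that matched several copies was split between them or counted at each, so the levels of these genes are uncertain. With the copies added to each enzyme and the fit repeated, an alternative chosen after seeing the data, Gapdh had a log2 fold change of -0.07 in place of -0.11, Eno1 of -0.17 in place of -0.16, and the fit called none of the 34. Exons of 15 of the 34 genes also overlap another gene, such as Fam129c with 20.6% of the exon bases of Pgls and Kansl1l with 17.9% of those of Rpe. Fam129c lies on the same strand as Pgls, so strand could not separate reads there. Kansl1l lies on the strand opposite to Rpe. Smart-Seq2 does not mark strand, so reads from overlaps of that kind cannot be told apart by strand either.

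Glucose enters T cells through the transporters GLUT1 and GLUT3, encoded by Slc2a1 and Slc2a3. Slc2a1 stood at 81.6, 60.1, 71.7 and 62.3 CPM in the IL-10/Fc libraries and at 69.1 and 85.3 CPM in the PBS libraries. These ranges overlapped, with a log2 fold change of -0.16 (SE 0.17, edgeR adjusted p = 0.772). Slc2a3 stood at 160.4, 76.9, 105 and 103 CPM in IL-10/Fc and at 87.5 and 71.7 CPM in PBS. IL-10/Fc replicate 1 was far above the rest, and replicate 2 lay between the PBS libraries (log2 fold change 0.49, SE 0.29, edgeR adjusted p = 0.555). Of the summed level per kb of the 2 transporters, Slc2a1 took 43.6% ± 4.47 in IL-10/Fc (SD, n = 4) and 54.0% ± 7.18 in PBS (SD, n = 2). The shares were 38.2%, 48.7%, 45.3% and 42.3% in IL-10/Fc and 48.9% and 59.1% in PBS, so the groups did not overlap, though by a margin of under 1 percentage point. The exact permutation p was 0.133, two-sided, the smallest that 2 libraries against 4 allow, so no share could pass 0.05. Over the 10 shares tested, the adjusted p was 0.667.

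Hexokinase phosphorylates glucose and so traps it in the cell. Hk2 (chromosome 6, 82725025 to 82774454, minus strand, in GRCm38) encodes the inducible form, and Hk1 a form found in most tissues. Hk2 stood at 36.2, 47.4, 59.0 and 60.2 CPM in the IL-10/Fc libraries and at 16.7 and 27.6 CPM in the PBS libraries. All 4 IL-10/Fc libraries lay above both PBS libraries. The log2 fold change was 1.20 (SE 0.31, edgeR unadjusted p = 0.0073, adjusted p = 0.237), a 2.29-fold higher level. In the authors' deposited table it was 1.19 with an adjusted p of 0.00629. Left out in turn, single libraries moved the log2 fold change between 0.88 (without PBS replicate 1) and 1.60 (without PBS replicate 2). In each group the order of the libraries by Hk2 was also their order by the sum of the macrophage and monocyte markers. The sums were 146, 356, 503 and 626 CPM in IL-10/Fc replicates 1 to 4. In PBS replicates 1 and 2 they were 245 and 400 CPM. The PBS order rested on Lyz2, at 40.3 and 301 CPM in replicates 1 and 2. Csf1r, Cd68, C1qa, C1qb, Itgam and Apoe were higher in PBS replicate 1. Adgre1, C1qc, Ms4a7 and Fcgr1, like Lyz2, were higher in PBS replicate 2. Across groups the order did not hold, as IL-10/Fc replicate 1 had the lowest sum but more Hk2 than either PBS library. Within groups the order was not particular to Hk2. Ldha and Eno3 followed it too, and Eno3 was lower in IL-10/Fc. The part of macrophages and monocytes in the Hk2 level was not tested.

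Hk1 stood at 11.4, 8.09, 6.70 and 8.21 CPM in IL-10/Fc and at 4.08 and 6.93 CPM in PBS. The lowest IL-10/Fc library lay just below the higher PBS library, and the log2 fold change was 0.65 (SE 0.36, edgeR adjusted p = 0.518). Both hexokinase genes therefore had higher means in IL-10/Fc, without a call by edgeR. Hk1 took 31.1%, 19.6%, 14.0% and 16.3% of the hexokinase level per kb in IL-10/Fc, against 25.9% and 26.4% in PBS. The lower Hk1 share in 3 of the 4 IL-10/Fc libraries was reversed in replicate 1, and the difference of means was -5.91 percentage points (exact permutation p = 0.4, adjusted over the 10 shares 0.933). Hk2 was the main hexokinase in all 6 libraries, at 2.21 to 6.15 times the level of Hk1 per kb in IL-10/Fc and 2.86 and 2.78 times in PBS.

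Gpi1, the isomerase that makes fructose phosphate, spanned 232 to 311 CPM in IL-10/Fc and 245 and 344 CPM in PBS (log2 fold change -0.08, SE 0.18). Phosphofructokinase then commits the sugar to glycolysis, and its subunits are encoded by Pfkl, Pfkm and Pfkp, named for liver, muscle and platelet. Pfkp stood at 329, 343, 334 and 303 CPM in IL-10/Fc and at 409 and 323 CPM in PBS, with overlap (log2 fold change -0.16, SE 0.12, edgeR adjusted p = 0.649). It was by far the main subunit gene, with 93.2% to 94.2% of the level per kb in IL-10/Fc and 96.3% and 89.3% in PBS. Pfkl made up 4.81% to 6.77% in IL-10/Fc and 3.36% and 9.71% in PBS, and Pfkm 0.0434% to 1.30% in IL-10/Fc and 0.322% and 0.975% in PBS. The IL-10/Fc shares of Pfkl and Pfkp thus lay between the PBS libraries, which differed from each other more than the groups did. None of these 3 shares had an exact permutation p below 0.667.

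**Figure D3:**
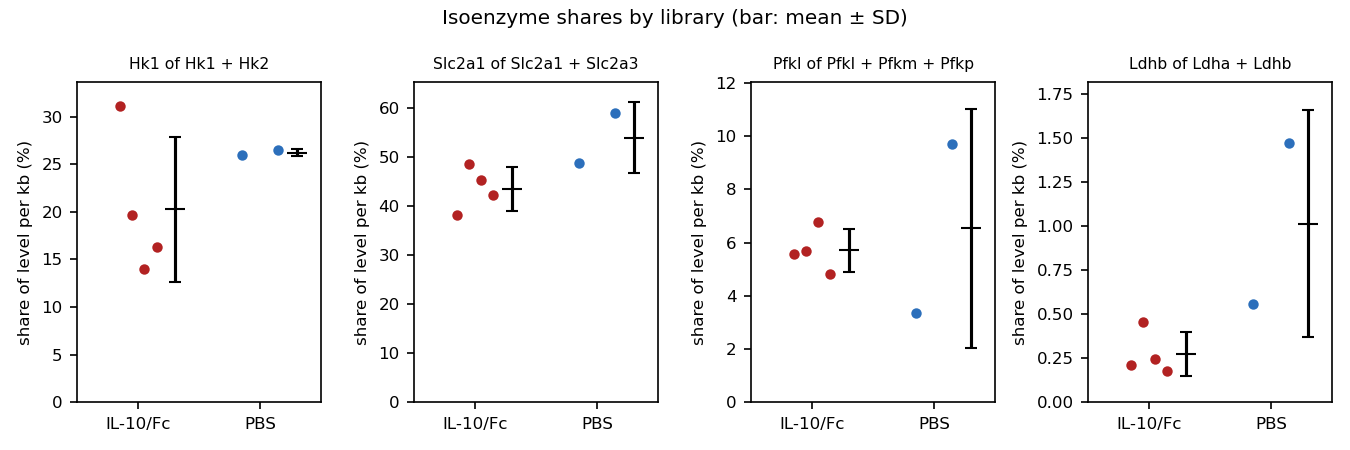
Share of an isoenzyme gene in the summed level per kb of its step, in percent, with a point per library and the mean ± SD beside the points. IL-10/Fc (red, n = 4) is left of PBS (blue, n = 2); Slc2a1 and Ldhb shares do not overlap between groups, whereas Hk1 and Pfkl shares do.

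The bifunctional PFKFB enzymes make and break the sugar phosphate that activates phosphofructokinase. Pfkfb3 stood at 8.61, 6.56, 4.11 and 6.04 CPM in IL-10/Fc and at 5.64 and 6.99 CPM in PBS, with means of 6.33 ± 1.85 CPM in IL-10/Fc and 6.32 ± 0.957 CPM in PBS. Its log2 fold change was 0.00 (SE 0.36, edgeR adjusted p = 0.999). Pfkfb4, which is induced by hypoxia in many cells, was scarce, at 0.402, 0, 0.865 and 0.542 CPM in IL-10/Fc and 0 and 1.73 CPM in PBS. Each group held a library with 0 counts, and the 53 counts of PBS replicate 2 were the most in any library, so the spread within PBS exceeded the difference between group means (log2 fold change -0.93, SE 1.92).

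From aldolase to pyruvate kinase, 10 genes carry the chain that yields ATP and pyruvate. Aldoa (chromosome 7, 126795234 to 126809108, minus strand), the aldolase of muscle and many other tissues, stood at 1556, 1242, 1211 and 1357 CPM in IL-10/Fc and at 1041 and 1124 CPM in PBS. All IL-10/Fc libraries lay above both PBS libraries (log2 fold change 0.31, SE 0.12, edgeR adjusted p = 0.388). Pgam1 (chromosome 19, 41911871 to 41918664, plus strand), the phosphoglycerate mutase, stood at 156, 148, 159 and 152 CPM in IL-10/Fc and at 128 and 136 CPM in PBS. The groups did not overlap and each was tight (log2 fold change 0.22, SE 0.09, edgeR adjusted p = 0.391), and with its copy added the log2 fold change was 0.22 as well. Scaled by library size alone, Aldoa was at 0.14 and Pgam1 at 0.054, with unadjusted edgeR p of 0.273 and 0.585. Pkm, the pyruvate kinase that makes pyruvate and ATP, went the other way, at 430.3, 414, 459.7 and 471 CPM in IL-10/Fc and 598 and 461 CPM in PBS. IL-10/Fc replicate 4 lay above PBS replicate 2 (log2 fold change -0.25, SE 0.13, edgeR adjusted p = 0.473).

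Of the other genes of this stretch, Tpi1 (triose phosphate isomerase), Gapdh, Pgk1 (phosphoglycerate kinase), Eno1 (the common enolase), Aldoc and Bpgm had overlapping groups. Their log2 fold changes ran from -0.27 for Bpgm, the mutase that makes the regulator of haemoglobin in red cells, to 0.08 for Aldoc, a brain aldolase. Pgk1 and Aldoc, at 0.02 and 0.08, were -0.15 and -0.10 when scaled by library size alone, which moved the median of all genes by -0.17. Gapdh stood at 154, 139, 142 and 148 CPM in IL-10/Fc and at 180.1 and 135 CPM in PBS. The IL-10/Fc libraries all lay between the PBS libraries.

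Eno3 (chromosome 11, 70657202 to 70662513, plus strand), the enolase of skeletal muscle, had the log2 fold change farthest from 0 among these 10. It stood at 4.02, 12.5, 17.8 and 34.1 CPM in IL-10/Fc and at 37.9 and 45.8 CPM in PBS. No IL-10/Fc library reached the PBS values, but they spread from 4.02 to 34.1 CPM among themselves, and the log2 fold change of -1.29 had an SE of 0.70 (edgeR adjusted p = 0.509). Eno1 took 99.6%, 98.6%, 98.2% and 96.6% of the enolase level per kb in IL-10/Fc, against 97.0% and 95.3% in PBS, with overlap (exact permutation p = 0.267, adjusted 0.889).

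**Figure D4:**
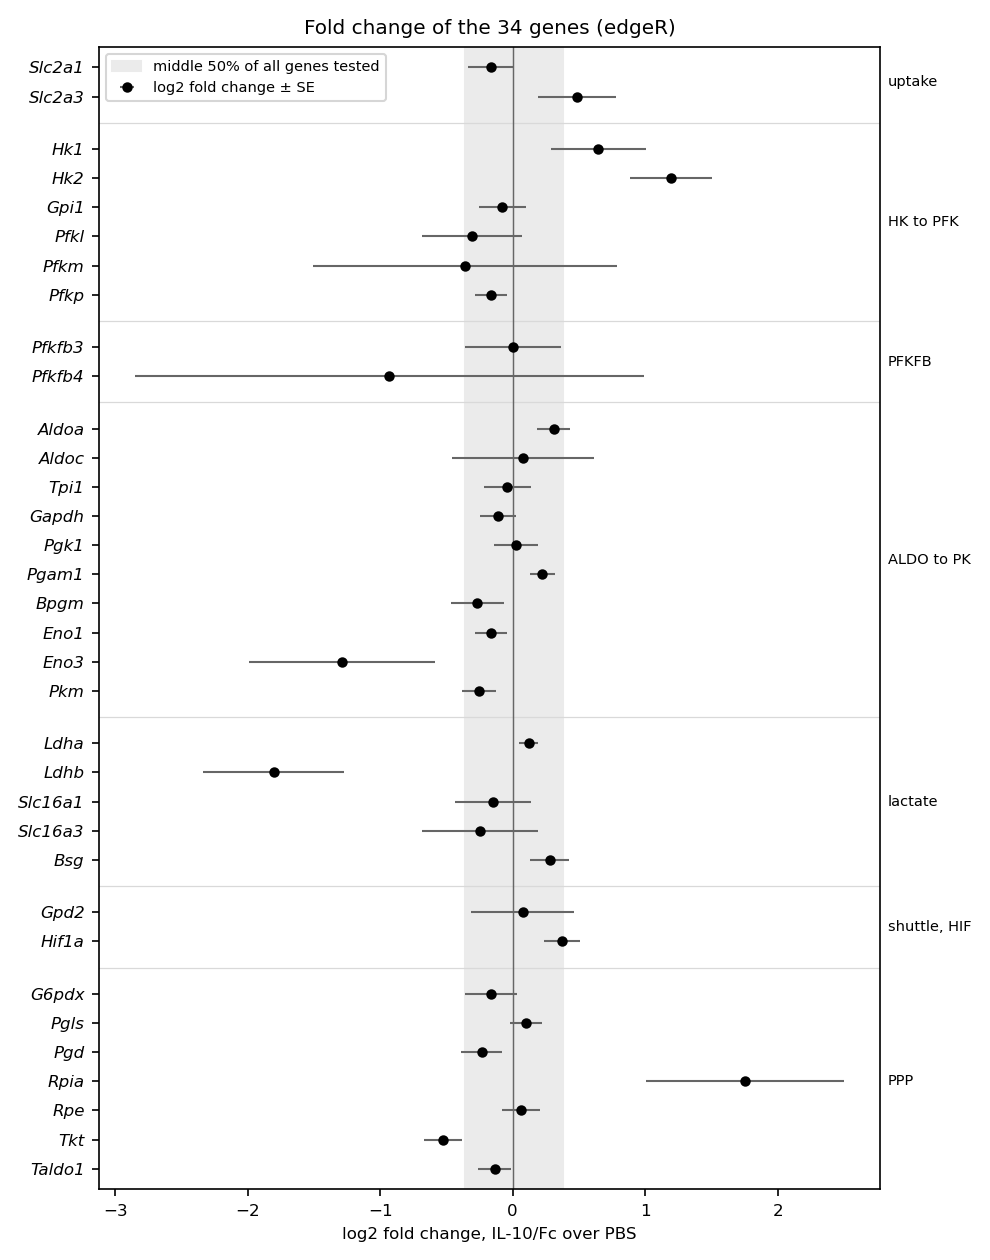
Log2 fold change of IL-10/Fc over PBS for the 34 genes with its standard error, by edgeR, in the order of the pathway. The grey band holds the middle 50% of all genes tested, from -0.36 to 0.38; Hk2, Hk1, Slc2a3 and Rpia lie to its right and Ldhb, Eno3, Pfkfb4 and Tkt to its left.

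Lactate dehydrogenase is a tetramer of subunits encoded by Ldha and Ldhb. The Ldha form is the muscle type, which favours lactate formation, and the Ldhb form the heart type, which favours pyruvate. Ldha was the most abundant of the 34 genes, at 1981, 2013, 2019 and 2057 CPM in IL-10/Fc and at 1806 and 1902 CPM in PBS. The groups did not overlap, while the log2 fold change was only 0.12 (SE 0.07, edgeR adjusted p = 0.542). Scaled by library size without TMM factors, it was -0.05. Ldhb (chromosome 6, 142490249 to 142507957, minus strand) stood at 3.08, 6.80, 3.67 and 2.74 CPM in IL-10/Fc and at 7.47 and 20.9 CPM in PBS. All IL-10/Fc libraries were lower, by a log2 fold change of -1.80 (SE 0.53, edgeR unadjusted p = 0.0137, adjusted p = 0.281). The authors' deposited table gave it -1.81 with an adjusted p of 0.0417. The size rests on PBS replicate 2. Without that library the log2 fold change was -0.88, and without PBS replicate 1 it was -2.36.

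Per kb of transcript, Ldhb took 0.210%, 0.456%, 0.246% and 0.180% of the lactate dehydrogenase level in IL-10/Fc and 0.557% and 1.47% in PBS. Ldha therefore exceeded Ldhb 219-fold to 555-fold in IL-10/Fc and 178-fold and 67.1-fold in PBS. The groups did not overlap, at an exact permutation p of 0.133 for the Ldha share (adjusted over the 10 shares 0.667). In every library Ldhb was a trace beside Ldha.

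Lactate leaves through MCT1 (Slc16a1) and MCT4 (Slc16a3), which need the chaperone basigin (Bsg) to reach the membrane. Bsg stood at 262, 231, 236 and 225 CPM in IL-10/Fc and at 166 and 227 CPM in PBS, where IL-10/Fc replicate 4 lay just below PBS replicate 2 (log2 fold change 0.28, SE 0.15, edgeR adjusted p = 0.502). Slc16a1 spanned 13.2 to 16.2 CPM in IL-10/Fc and stood at 20.8 and 11.2 CPM in PBS. Slc16a3 spanned 5.33 to 14.2 CPM in IL-10/Fc and stood at 8.90 and 12.5 CPM in PBS. Neither transporter gene separated the groups, and the Slc16a1 share of the pair was 50.2% to 71.4% in IL-10/Fc and 69.6% and 46.7% in PBS.

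**Figure D5:**
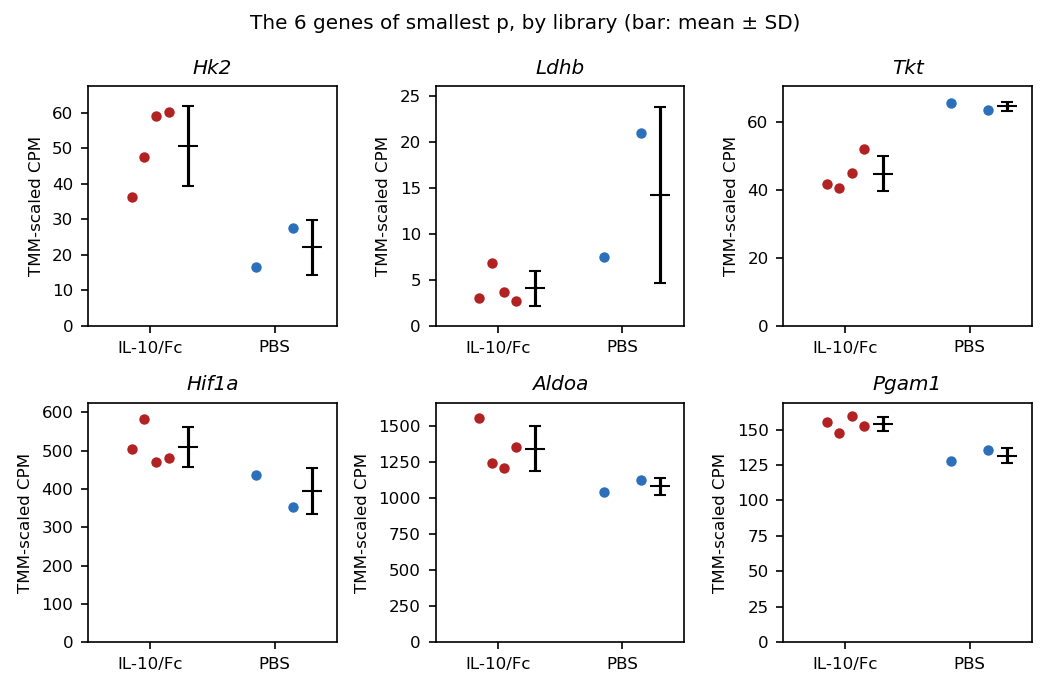
TMM-scaled CPM by library of the 6 genes with an unadjusted edgeR p under 0.05, IL-10/Fc (red, n = 4) left of PBS (blue, n = 2), with the mean ± SD beside the points and axes from 0. Groups do not overlap in any panel; the difference of means is largest relative to the level for Ldhb and Hk2, and its size for Ldhb rests on PBS replicate 2.

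HIF-1alpha, the oxygen-regulated factor encoded by Hif1a, is known to induce many glycolytic genes and is controlled mainly at the protein level. Hif1a (chromosome 12, 73901375 to 73947530, plus strand) stood at 504, 583, 470.2 and 480.3 CPM in IL-10/Fc and at 436 and 352 CPM in PBS. All IL-10/Fc libraries were above both PBS libraries (log2 fold change 0.37, SE 0.14, edgeR unadjusted p = 0.0338, adjusted p = 0.355). The value was 0.20 when scaled by library size alone (edgeR unadjusted p = 0.212). Gpd2, the mitochondrial arm of the shuttle that passes glycolytic electrons to the respiratory chain, stood at 45.9, 35.8, 63.5 and 35.5 CPM in IL-10/Fc. In PBS it stood at 26.4 and 59.3 CPM, a wider spread between 2 libraries than between group means (log2 fold change 0.08, SE 0.39, edgeR adjusted p = 0.968, and -0.08 if scaled by library size alone).

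The core of the hypoxia response element that HIF-1 binds reads ACGTG, and the E-box of MYC and USF factors, CACGTG, contains it. RefSeq promoter windows on GRCm38.p6 were matched for 32 of the 34 genes. In the 250 bases before the start, on either strand, ACGTG was found for 13 of these 32 genes (40.6%), beside 25.1% of the tested genes with a window in the table. Per window, it was in 16 of their 46 (34.8%), beside 16.6% of all windows. CACGTG was found for 5 of the 32 genes (15.6%), beside 9.77%, and in 10.9% of their windows, beside 6.02%. A match of so few letters is a description, not a binding site. The windows of Hk2, Tkt and Ldhb, the genes called in the authors' deposited table, and of Ldha as the partner of Ldhb are shown, 5′ to 3′ on the gene's strand, with ACGTG or its reverse complement in capitals.
Hk2 (chr6:82774455-82774704, minus): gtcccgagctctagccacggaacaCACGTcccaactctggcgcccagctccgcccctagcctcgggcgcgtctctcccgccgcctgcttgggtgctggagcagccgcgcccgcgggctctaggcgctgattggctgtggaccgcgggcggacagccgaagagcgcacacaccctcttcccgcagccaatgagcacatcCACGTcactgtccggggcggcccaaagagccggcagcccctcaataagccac
Ldha (chr7:46845554-46845803, plus): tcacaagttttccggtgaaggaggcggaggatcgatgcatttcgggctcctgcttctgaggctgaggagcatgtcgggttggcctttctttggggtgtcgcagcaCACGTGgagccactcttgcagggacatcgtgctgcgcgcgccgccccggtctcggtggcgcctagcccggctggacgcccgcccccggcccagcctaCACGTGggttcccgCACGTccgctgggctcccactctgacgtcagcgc
Ldhb (chr6:142507958-142508207, minus): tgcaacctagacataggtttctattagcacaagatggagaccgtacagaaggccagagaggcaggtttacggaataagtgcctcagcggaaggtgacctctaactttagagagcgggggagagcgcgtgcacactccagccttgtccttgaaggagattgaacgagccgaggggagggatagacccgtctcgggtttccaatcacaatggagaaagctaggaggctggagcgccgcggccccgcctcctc
Tkt (chr14:30548881-30549130, plus): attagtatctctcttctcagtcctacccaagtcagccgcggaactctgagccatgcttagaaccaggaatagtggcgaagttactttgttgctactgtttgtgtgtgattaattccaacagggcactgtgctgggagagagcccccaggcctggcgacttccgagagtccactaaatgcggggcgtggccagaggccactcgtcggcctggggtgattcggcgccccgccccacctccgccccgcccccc
Hk2 and Ldha carried the letters and Ldhb and Tkt did not; of the 2 Ldha windows in the table the upstream one is shown, and the other had no match. For Hk1, neither of its windows held a match. Genes with the letters lay on both sides of 0, such as Pgam1 (log2 fold change 0.22) and Pkm (-0.25). So did genes without them, such as Rpia (1.76) and Eno3 (-1.29).

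Genes known to respond to HIF-1 or to regulate it were divided in direction. Of 24 such genes, 23 were analysed, 12 with values above 0 and 11 below 0 and a median log2 fold change of 0.16. None passed edgeR's adjusted test, and 2 higher (Higd1a and Vegfa) and 3 lower (P4ha2, Bnip3l and Bhlhe40) had an unadjusted p under 0.05, beside 7.2% and 5.52% of all genes. The collagen prolyl hydroxylase gene P4ha2 had 3, 1, 0 and 0 counts in the IL-10/Fc libraries and 176 and 123 counts in the PBS libraries, and was the 1 gene of this list called in the authors' deposited table, lower in IL-10/Fc. Bnip3l, a mitophagy receptor, averaged 155 ± 7.89 CPM in IL-10/Fc (SD, n = 4) and 196 ± 17.2 CPM in PBS (SD, n = 2).

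The pentose phosphate pathway had 7 genes, with a median log2 fold change of -0.14. Its oxidative steps are run by G6pdx, the rate-limiting dehydrogenase, Pgls, the lactonase, and Pgd, the second NADPH-forming dehydrogenase. Pgd stood at 28.6, 31.0, 33.6 and 36.4 CPM in IL-10/Fc and at 39.8 and 36.5 CPM in PBS. A narrow margin kept the groups apart (log2 fold change -0.23, SE 0.16, edgeR adjusted p = 0.600). G6pdx spanned 41.1 to 62.7 CPM in IL-10/Fc and stood at 63.9 and 53.9 CPM in PBS (log2 fold change -0.16, SE 0.19), and Pgls spanned 126 to 139 CPM in IL-10/Fc and stood at 111 and 136 CPM in PBS (log2 fold change 0.10, SE 0.12). Both overlapped between groups.

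In the non-oxidative steps, Tkt (chromosome 14, 30548359 to 30574722, plus strand), whose enzyme moves carbon pairs between sugars, had the second smallest edgeR p of the 34 genes. It stood at 41.6, 40.5, 45.0 and 51.9 CPM in IL-10/Fc and at 65.5 and 63.6 CPM in PBS. Every IL-10/Fc library was lower than both PBS libraries, which were nearly equal. The log2 fold change was -0.53 (SE 0.15, edgeR unadjusted p = 0.00952, adjusted p = 0.26) and lay between -0.61 and -0.48 with single libraries left out. The authors' deposited table gave -0.53 with an adjusted p of 0.0377. Rpia (chromosome 6, 70765720 to 70792232, minus strand), the isomerase that makes ribose phosphate, was scarce, at 1.91, 1.71, 2.34 and 3.42 CPM in IL-10/Fc and 0.272 and 1.11 CPM in PBS. Again no library of either group entered the range of the other (log2 fold change 1.76, SE 0.75, edgeR adjusted p = 0.403), and the log2 fold change was 1.07 without PBS replicate 1 and 3.09 without PBS replicate 2. Rpe, the epimerase, and Taldo1, the transaldolase, overlapped between groups, with log2 fold changes of 0.06 and -0.14. Scaled by library size alone, Rpe and Pgls were at -0.11 and -0.07.

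Per kb of transcript, the levels formed a steep order. In IL-10/Fc Ldha stood first at 1142 CPM per kb, followed by Aldoa at 888, Eno1 at 607, Tpi1 at 392, Pgk1 at 229.6 and Pkm at 183 CPM per kb. In PBS the same genes stood at 1049.8, 716, 679, 404, 226 and 218 CPM per kb. The pentose phosphate genes Taldo1 and Pgls, at 175 and 148 CPM per kb in IL-10/Fc and 193 and 138 CPM per kb in PBS, lay well above Tkt, at 13.9 CPM per kb in IL-10/Fc and 20.0 CPM per kb in PBS. The place in this order of genes with many copies, Gapdh above all, is uncertain.

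The other isoenzymes and the side branches of sugar metabolism, 32 genes analysed of 49 considered, had a median log2 fold change of -0.10. None passed edgeR's adjusted test, and 1 higher (Ugp2) and 3 lower (Gbe1, Pgm2 and Galk1) had an unadjusted p under 0.05, beside 7.2% and 5.52% of all genes. The authors' deposited table called Gbe1 and Pgm2, both lower in IL-10/Fc, as were 1.72% of all listed genes. Gbe1, the branching enzyme of glycogen synthesis, stood at 14.7, 25.4, 14.7 and 17.8 CPM in IL-10/Fc and at 40.3 and 37.8 CPM in PBS, without overlap. Pgm2, a phosphoglucomutase, stood at 38.3, 54.7, 44.7 and 44.7 CPM in IL-10/Fc and at 93.5 and 61.0 CPM in PBS.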

How the data were processed

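RNA of 4 IL-10/Fc and 2 PBS libraries, each of 500 sorted cells (purity above 99%), was copied with Smart-Seq2, per the labels' protocols, without molecular identifiers. The authors deposited raw counts per gene, 1 file a library. In a table of the series they deposited log2 fold changes with standard errors, p-values with adjusted p-values, a mean of normalized counts (a signal) and the Wald statistic (a score). GRCm38 and DESeq2, TopHat2 2.1.1, Bowtie2 2.2.9, Cuffdiff, Trimmomatic and Cufflinks 2.2.1 are named, per the submitters' processing notes. Which tool counted the reads was not given in the sources used here. The 6 library files equalled the columns of the series table, whose PBS numbers differ from the titles; titles were followed. Replicates differed by more than sampling noise, with a chi-square over its degrees of freedom of 43.6 to 126.

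Genes were filtered with filterByExpr (15477 left), scaled by TMM (factors 0.95 to 0.983 in IL-10/Fc, 1.1 and 1.06 in PBS) and tested two-sided with edgeR 4.0.16 (glmQLFit with the robust option, glmQLFTest, group as the sole term) and Benjamini-Hochberg adjustment at 0.05. SE is the log2 fold change over the root of F. DESeq2 1.42.0, limma 3.58.1 (voom), other filters and scalings, a block for the replicate number and the removal of single libraries were alternatives. The tests were run on simulated counts with less spread between libraries than these data have (biological coefficient of variation 0.543). That check therefore does not show how the tests perform here. Levels per kb and shares used the principal transcript length of GENCODE M21 on GRCm38, as the deposited table gives none; shares were compared by exact permutation over the 15 splits (scipy 1.17.1). Copies were found with BLAST 2.17.0. The genes, lists and naming rule (all 34 genes, with full statistics for up to 3 per role with the smallest p) were chosen with earlier results of these data known; the 2 genes named from each further list are those of smallest p, and others were named after their values were seen. Copies added to their gene and shares by union exon length were chosen after seeing the data.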

Additional observations from a re-analysis of the deposited data

How the results depend on the processing

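No gene of the set was called by edgeR under any scaling, filter or left-out library, and the DESeq2 Wald test called 1, Hk2 (log2 fold change 1.19). Over all genes, 750 were called by the DESeq2 Wald test and 60 with at least 20 CPM in 2 libraries. With no robust option, library size only or the replicate block it was 0, and 0 to 16 without single libraries, with 16 without PBS replicate 2. The median of the 34 genes was -0.27 with library size only, and -0.13 to 0.085 without single libraries. Values near 0 changed sign. With library size only, Pfkfb3 was -0.17, Aldoc -0.10, Pgk1 -0.15, Ldha -0.049, Gpd2 -0.081, Pgls -0.069 and Rpe -0.11. With limma-voom, Pfkfb3 was -0.034, Pfkfb4 0.50 and Aldoc -0.051. The replicate numbers share no stated source, and the deviations of libraries with the same number correlated at 0.0615 and 0.0135. With the replicate block, Gpi1 was 0.058, the Slc16a1 share -0.30 percentage points, Hk2 0.95, Ldhb -1.45, Tkt -0.65 and Eno3 -2.55 (unadjusted p = 0.0082, adjusted p = 0.612, edgeR), and none of the 34 passed. Without single libraries, log2 fold changes ran from -0.30 to 0.18 for Gpi1, -0.81 to 0.48 for Pfkl, -1.10 to 0.48 for Pfkm, -0.32 to 0.016 for Pfkp, -0.18 to 0.17 for Pfkfb3, -1.93 to 6.78 for Pfkfb4 (no bound, as PBS replicate 1 had 0 counts), -0.24 to 0.36 for Aldoc, -0.17 to 0.093 for Tpi1, -0.31 to 0.11 for Gapdh, -0.19 to 0.27 for Pgk1, -0.34 to 0.044 for Eno1, -0.53 to 0.36 for Slc16a1, -0.55 to 0.023 for Slc16a3, -0.39 to 0.78 for Gpd2, -0.044 to 0.26 for Pgls and -0.022 to 0.15 for Rpe. Shares, in percentage points, ran from -4.01 to 2.34 for Pfkl, -0.41 to 0.24 for Pfkm, -2.58 to 4.42 for Pfkp, -0.017 to 0.49 for Aldoa, -7.32 to 15.5 for Slc16a1 and -9.58 to 15.2 for Pfkfb3. The cause of these shifts was not tested. With 2 PBS libraries, either of them can set the sign of a small difference, and genes as scarce as Pfkfb4, with 0 to 53 counts a library, vary too much for a comparison.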
